A study of Homo sapiens with 10 samples.

Results

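The group described here is a chosen list of 8 genes of the TNF receptor family: FAS, TNFRSF10A, TNFRSF10B, TNFRSF10C, TNFRSF10D, EDA2R, TNFRSF1A and TNFRSF21. The list does not hold every death receptor or decoy. These genes were taken by the platform's gene symbols, with every probe set that carries such a symbol. They were measured on Affymetrix arrays in HEK-293 cells, which derive from human embryonic kidney and show some neuronal traits. Each gene had 1 probe set. That of TNFRSF10C is also listed for the non-coding RNA LOC254896, so 7 of the 8 had a probe set of their own. These 7 are among the 18404 genes with a single platform symbol, and TNFRSF10C is not. The members were chosen by a list that was drawn up with the low TNFRSF10D level under siRNA 2 and lower p53 target genes under both LOC440173 siRNAs already known. The values of the receptors under either LOC440173 siRNA, and every difference that includes them, are therefore given as a description, with no p. The p-values of the PAXIP1-AS1 siRNA against its control do not allow for that choice.

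All cells were transfected with MISSION siRNA duplexes by RNAiMax, and RNA was taken 48 hours later. The 5 groups of 2 biological replicates were LOC440173 siRNA 2 at 10 nM, LOC440173 siRNA 1 at 10 nM, the control siRNA at 10 nM, the PAXIP1-AS1 siRNA at 100 nM and the control siRNA at 100 nM. LOC440173, now named LINC02893, and PAXIP1-AS1 are long non-coding RNAs. The control was a commercial duplex of undisclosed sequence, all groups came from a single cell line, and PAXIP1-AS1 was silenced with a single siRNA. Levels are the deposited log2 values, in which a difference of 1 is a 2-fold change, and the level of a probe set above background is unknown. LINC02893 averaged 6.65 ± 0.086 with siRNA 2 and 7.58 ± 0.20 with siRNA 1, against 8.54 ± 0.091 in the 10 nM control (SD, n = 2 each). It fell with both siRNAs, with log2 fold changes of -1.89 (SE 0.099, adjusted p = 1.38e-05) and -0.96 (SE 0.099, adjusted p = 0.000305). The level of PAXIP1-AS1 was not analysed here. Of 8 markers of HEK-293 cells, VIM (11.07 to 11.40), CDH2 (11.08 to 11.67), NEFM (9.46 to 11.33) and NEFL (9.08 to 10.25) had high group means, while PAX2 and LHX1 lay below the median of all genes, 7.66. The 11 markers of blood, endothelium and liver had group means between 3.56 (PTPRC) and 7.04 (APOA1). Of the HEK-293 markers, with siRNA 2 NEFM (1.11) and CDH2 (0.55) rose and NEFL (-0.51), KRT18 (-0.59), KRT8 (-0.32) and VIM (-0.31) fell. With siRNA 1, KRT8 rose (0.53) and NEFL (-1.07) and NEFM (-0.77) fell, and with the PAXIP1-AS1 siRNA NEFL (-1.13) and NEFM (-0.52) fell. Of the markers of other cell types, PECAM1 rose with siRNA 1 (0.36, adjusted p = 0.0226). The medians of the blood, endothelium and liver markers with siRNA 1 were 0.17, 0.21 and 0.16, against 0.05 for all genes. The part of such marker shifts in the receptor values was not tested. In bulk RNA, fewer cells that express a receptor and less of its RNA per cell cannot be told apart.

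Death receptors sit in the cell membrane and are bound from outside by ligands of the TNF family. FAS, TNFRSF10A (DR4), TNFRSF10B (DR5), TNFRSF1A (TNFR1) and TNFRSF21 (DR6) carry a death domain inside the cell, through which FAS and the TRAIL receptors DR4 and DR5 bind FADD and start caspase-8. TNFRSF10C (DcR1) and TNFRSF10D (DcR2) bind TRAIL without a working death domain and act as decoys. EDA2R binds an isoform of ectodysplasin and signals through TRAF proteins. FAS, TNFRSF10B and EDA2R are known target genes of the transcription factor p53 in human cells. Whether p53 also acts on the other receptors of the list was not examined here. HEK-293 cells carry adenovirus E1 genes, whose products bind p53.

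Promoter sequence was available for 4 of the 8 receptors in the RefSeq table (GRCh38.p14), and 3 are shown because FAS, EDA2R and TNFRSF21 followed different patterns across the siRNAs. Each run holds 250 bases before and 50 bases after the start site, read along the gene's own strand from 5′ to 3′. Capitals mark matches, on either strand, to GGGCGG (the GC box), CACGTG (the E-box) and TGANTCA (the AP-1 site). The sequences are FAS at chr10:88990548-88990847 (+), EDA2R at chrX:66639220-66639519 (-) and TNFRSF21 at chr6:47309856-47310155 (-).
FAS: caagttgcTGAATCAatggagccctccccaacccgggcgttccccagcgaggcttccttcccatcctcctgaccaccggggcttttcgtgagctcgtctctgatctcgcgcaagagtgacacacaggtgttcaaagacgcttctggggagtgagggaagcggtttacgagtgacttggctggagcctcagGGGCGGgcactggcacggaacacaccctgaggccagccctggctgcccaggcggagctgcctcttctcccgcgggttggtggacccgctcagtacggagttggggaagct
EDA2R: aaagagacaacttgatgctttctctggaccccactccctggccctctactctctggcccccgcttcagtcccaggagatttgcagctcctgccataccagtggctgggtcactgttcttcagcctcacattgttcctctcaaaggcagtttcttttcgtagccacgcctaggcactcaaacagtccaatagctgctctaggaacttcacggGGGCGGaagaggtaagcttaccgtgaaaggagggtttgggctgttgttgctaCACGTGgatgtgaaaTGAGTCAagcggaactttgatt
TNFRSF21: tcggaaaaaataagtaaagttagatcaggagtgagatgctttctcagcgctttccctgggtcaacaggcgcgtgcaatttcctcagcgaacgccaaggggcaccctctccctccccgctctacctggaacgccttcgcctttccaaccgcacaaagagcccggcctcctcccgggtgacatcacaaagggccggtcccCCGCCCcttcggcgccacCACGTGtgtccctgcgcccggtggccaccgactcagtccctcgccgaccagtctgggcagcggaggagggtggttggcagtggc

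Counted from the start site, with bases before it negative, FAS held GGGCGG at -60 to -55 and TGANTCA at -242 to -236. EDA2R held GGGCGG at -39 to -34, CACGTG at 14 to 19 and TGANTCA at 29 to 35. TNFRSF21 held GGGCGG at -52 to -47 and CACGTG at -34 to -29. The GC content was 63.0% for FAS, 52.3% for EDA2R and 63.3% for TNFRSF21. Among 35116 promoters of the same length, 45.0% held GGGCGG, 7.26% CACGTG and 7.71% TGANTCA. The letters TATAAA (11.5% of promoters) and the p53 half-site (6.63%) matched 0 of the 4 receptor windows, and TNFRSF1A matched none of the motifs searched. A match describes the letters of a window and shows no binding, and EDA2R and FAS have other listed start sites that were not printed.

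FAS, the receptor of FAS ligand, was lowest with the PAXIP1-AS1 siRNA. Its level was 8.25 and 8.42 with siRNA 2 and 8.24 and 8.15 with siRNA 1, against 8.48 and 8.75 in the 10 nM control. It was 7.63 and 7.77 with the PAXIP1-AS1 siRNA, against 8.49 and 8.63 in the 100 nM control. None of the 3 siRNA groups overlapped its control. The smallest p of an exact permutation test of 2 arrays against 2 is 0.333, so a lack of overlap alone carries little weight. The share of all genes without overlap was not counted. Lack of overlap did not set FAS apart, since receptors with small differences showed it too. TNFRSF1A (-0.08) and TNFRSF21 (-0.09) lay apart from their control with the PAXIP1-AS1 siRNA, as did TNFRSF10A with siRNA 1 (0.06). FAS fell with the PAXIP1-AS1 siRNA to 55.1% of its control (log2 fold change -0.86, SE 0.11, adjusted p = 0.00650). This call was lost without PAXIP1-AS1 siRNA replicate 1 (adjusted p = 0.0666) or the 100 nM control replicate 2 (0.0563). With siRNA 2 FAS stood at 82.2% of its control (log2 fold change -0.28, SE 0.11), a value that ran from -0.42 to -0.14 with 1 array left out. With siRNA 1 it stood at 74.6% (-0.42, SE 0.11), with a range of -0.56 to -0.28.

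TNFRSF10B, the death-signalling TRAIL receptor DR5, was the brightest probe set among the receptors and differed the least from its control among the 4 receptors that were lower in all 3 siRNA groups. Its level was 9.83 on both siRNA 2 arrays and 9.91 and 9.92 with siRNA 1, against 10.11 and 10.04 in the 10 nM control. In PAXIP1-AS1 siRNA cells it was 9.55 and 9.58, against 10.03 and 10.05 in the 100 nM control. Each siRNA group lay below its control without overlap, with the same limit as for FAS. TNFRSF10B fell with the PAXIP1-AS1 siRNA to 72.3% of its control (log2 fold change -0.47, SE 0.049, adjusted p = 0.00318). Under siRNA 2 it stood at 84.4% (log2 fold change -0.24, SE 0.049), with a range of -0.28 to -0.21 with 1 array left out. With siRNA 1 it stood at 89.3% (log2 fold change -0.16, SE 0.049), with a range of -0.20 to -0.13.

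EDA2R was lower by a similar size with all 3 siRNAs. Averaged over the arrays it lay at 7.02, below the median of all genes, 7.66, and it was dropped when dim genes were left out. How far a low level limits the size of its fall was not tested. Its level was 6.71 and 6.56 with siRNA 2 and 6.57 and 6.83 with siRNA 1, against 7.61 and 7.63 in the 10 nM control. It was 6.49 and 6.54 with the PAXIP1-AS1 siRNA, against 7.55 and 7.69 in the 100 nM control. Every target siRNA array lay below every control array, and the share of all genes for which this held was not counted. EDA2R fell with the PAXIP1-AS1 siRNA to 46.6% of its control (log2 fold change -1.10, SE 0.097, adjusted p = 0.00146), a call that held in all 17 alternatives that measured it. It stood at 50.6% with siRNA 2 (-0.98, SE 0.097) and at 52.9% with siRNA 1 (-0.92, SE 0.097). The siRNA 2 level minus the siRNA 1 level was -0.06 (95% interval -0.29 to 0.16). The PAXIP1-AS1 effect minus the siRNA 2 effect was -0.12 (-0.44 to 0.20), and minus the siRNA 1 effect it was -0.18 (-0.50 to 0.13).

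**Figure D1:**
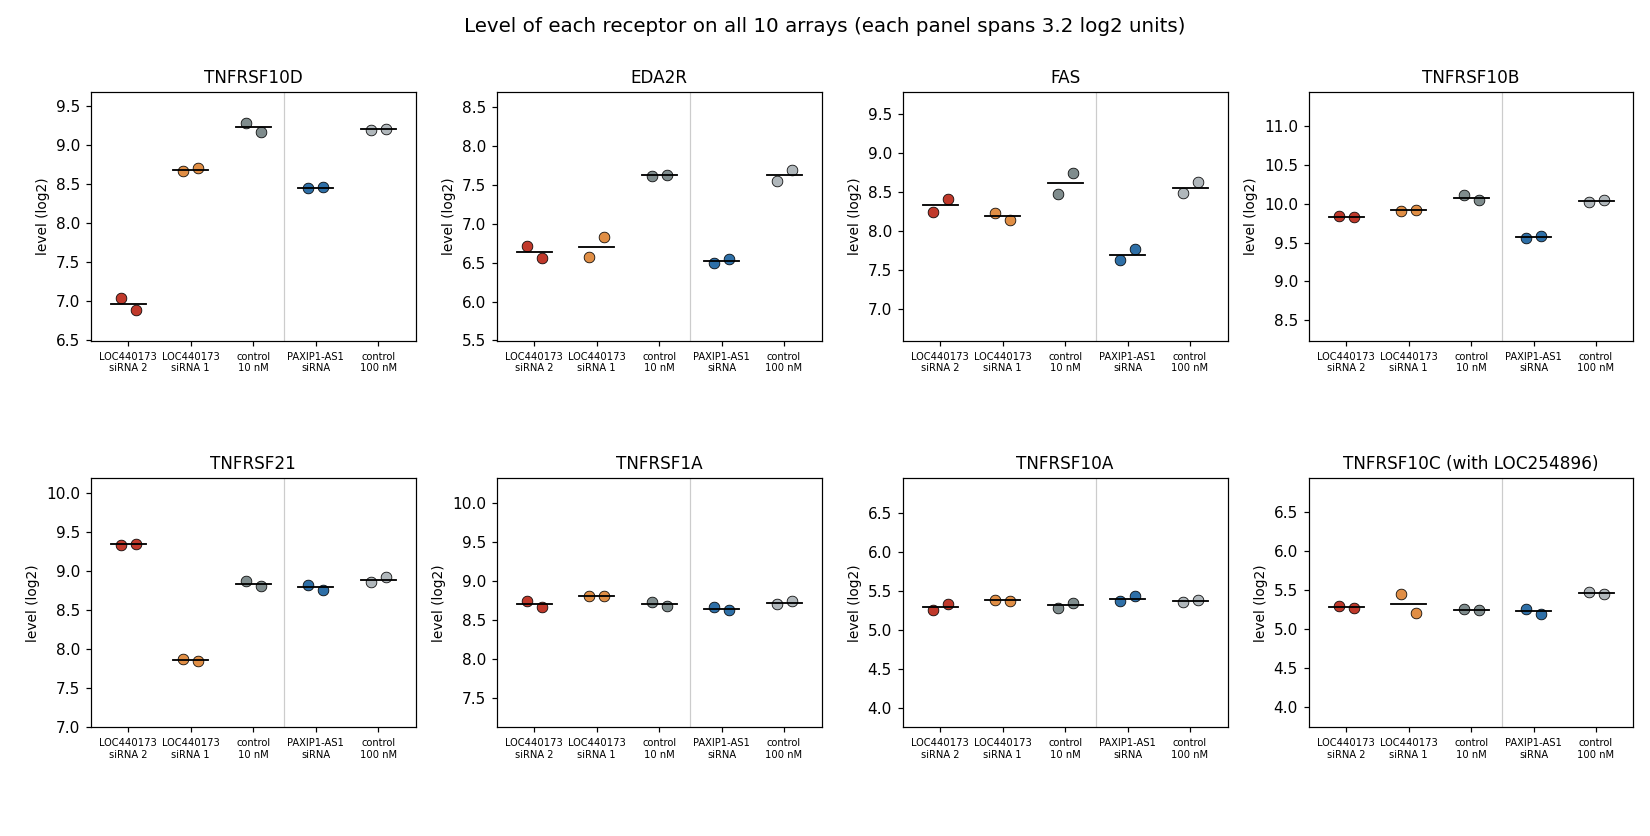
Level of each of the 8 listed receptors on each array (log2, vertical axis), by siRNA group, with points for the 2 arrays of a group and a line for their mean. EDA2R lies between 6.49 and 6.83 in all 3 target siRNA groups and between 7.55 and 7.69 in both controls, while TNFRSF10D is at 7.04 and 6.88 with siRNA 2 and TNFRSF21 at 7.88 and 7.84 with siRNA 1.

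TNFRSF10D, the decoy TRAIL receptor DcR2, was lower in every target siRNA group and lowest with siRNA 2. Its level was 7.04 and 6.88 with siRNA 2 and 8.67 and 8.71 with siRNA 1, against 9.29 and 9.17 in the 10 nM control. With the PAXIP1-AS1 siRNA it was 8.45 and 8.46, against 9.19 and 9.22 in the 100 nM control. Under siRNA 2 it stood at 20.7% of the control (log2 fold change -2.27, SE 0.067), the value by which it was noticed. With siRNA 1 it stood at 68.7% (-0.54, SE 0.067). TNFRSF10D fell with the PAXIP1-AS1 siRNA to 59.4% of its control (-0.75, SE 0.067, adjusted p = 0.00148), a call that held in all 18 alternatives. The PAXIP1-AS1 effect minus the siRNA 1 effect was -0.21 (95% interval -0.43 to 0.01). The difference between siRNA 2 and siRNA 1 was -1.73 (SE 0.067). In order of level the groups ran siRNA 2, PAXIP1-AS1 siRNA, siRNA 1 and the controls.

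TNFRSF21, the death receptor DR6, was above its control with siRNA 2 and below it with siRNA 1, although both siRNAs target the same transcript. Its level was 9.34 on both siRNA 2 arrays and 7.88 and 7.84 with siRNA 1, against 8.87 and 8.81 in the 10 nM control. With the PAXIP1-AS1 siRNA it was 8.83 and 8.76, against 8.85 and 8.92 in the 100 nM control. TNFRSF21 stood at 142% of its control with siRNA 2 (log2 fold change 0.50, SE 0.053) and at 50.7% with siRNA 1 (-0.98, SE 0.053). The level with siRNA 2 was 2.80-fold that with siRNA 1 (log2 fold change 1.48, SE 0.053). In PAXIP1-AS1 siRNA cells the difference from its control was -0.09 (95% interval -0.21 to 0.03, adjusted p = 0.417).

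TNFRSF1A, the main receptor of TNF, and the probe sets of TNFRSF10A and TNFRSF10C differed little from their controls. TNFRSF1A stayed between 8.63 and 8.81 on all 10 arrays. Its differences were -0.01 with siRNA 2 (95% interval -0.13 to 0.11), 0.10 with siRNA 1 (-0.02 to 0.22) and -0.08 with the PAXIP1-AS1 siRNA (-0.19 to 0.04, adjusted p = 0.507). TNFRSF10A, the TRAIL receptor DR4, lay between 5.26 and 5.43, with differences of -0.02 (-0.14 to 0.11), 0.06 (-0.06 to 0.19) and 0.04 (-0.09 to 0.16, adjusted p = 0.811) in the same order. The probe set listed for TNFRSF10C and LOC254896 lay between 5.19 and 5.47, and its differences were 0.04 (-0.16 to 0.23), 0.08 (-0.11 to 0.27) and -0.23 (-0.42 to -0.04, adjusted p = 0.269). Averaged over the arrays, TNFRSF10A (5.35) and the shared probe set (5.31) were below the lower quartile of all genes, 5.99, where a further fall may not be measurable. The TRAIL receptor genes are related in sequence, and how far their probe sets tell them apart was not tested.

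Counted over the 8 receptors at an adjusted p under 0.05, the PAXIP1-AS1 siRNA gave 0 higher and 4 lower, beside 2.86% higher and 1.76% lower of all genes. The same count with siRNA 2 was 1 higher and 3 lower, beside 12.5% and 17.4% of all genes. For siRNA 1 it was 0 higher and 5 lower, beside 12.1% and 16.7%, and between siRNA 2 and siRNA 1 it was 1 higher and 1 lower, beside 18.2% and 19%. The choice of members used the LOC440173 contrasts, and nothing is read from their counts. The median log2 fold change of the receptors was -0.13 with siRNA 2, -0.29 with siRNA 1 and -0.35 with the PAXIP1-AS1 siRNA, while that of all genes was 0.01, 0.05 and -0.01. The siRNA 2 and siRNA 1 values share the 10 nM control arrays, whereas the PAXIP1-AS1 values come from arrays of their own. Among the 20 other TNF receptors measured, 1 was higher and 0 lower with siRNA 2 (TNFRSF11A, 0.25, adjusted p = 0.0343), 1 was higher and 0 lower with siRNA 1 (TNFRSF1B, 0.27, adjusted p = 0.0124), and 0 were called with the PAXIP1-AS1 siRNA. TNFRSF25, NGFR and EDAR are among the 20, which are not a set without death receptors. The median of the 20 with siRNA 1 was 0.12, against 0.05 for all genes. Several were dim, where a fall may not be measurable. Group means were 4.10 to 4.40 for TNFRSF17, 6.06 to 6.16 for TNFRSF9 and 6.39 to 6.66 for TNFRSF1B, below the median of all genes, 7.66. TNFRSF11A (7.85 to 8.28) and TNFRSF12A (8.87 to 8.99) lay above it.

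**Figure D2:**
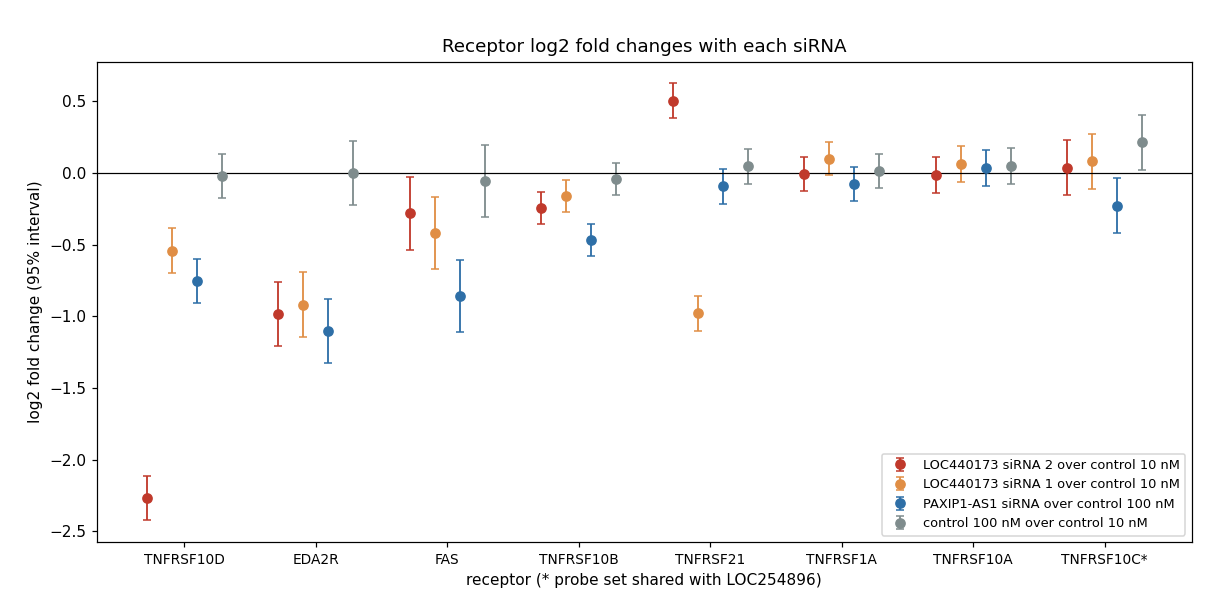
Log2 fold change of each receptor (vertical axis), with 95% intervals from limma as bars, for siRNA 2 and siRNA 1 over the 10 nM control, the PAXIP1-AS1 siRNA over the 100 nM control, and the 100 nM over the 10 nM control. EDA2R lies between -0.92 and -1.10 for all 3, TNFRSF10D reaches -2.27 with siRNA 2, and TNFRSF21 is at 0.50 with siRNA 2 and -0.98 with siRNA 1.

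Of 18404 genes, 0 were called by limma between the 100 nM and the 10 nM control, and 692 had an unadjusted p under 0.05. The receptors differed by -0.06 (FAS) to 0.21 (the shared TNFRSF10C probe set, 95% interval 0.02 to 0.40), with the lowest adjusted p at 0.9997. Dose and any batch of the PAXIP1-AS1 experiment cannot be told apart.

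The log2 effect of the PAXIP1-AS1 siRNA minus that of siRNA 2 was -0.58 for FAS, -0.22 for TNFRSF10B, -0.60 for TNFRSF21 and 1.52 for TNFRSF10D. Minus the effect of siRNA 1 it was -0.44 for FAS, -0.31 for TNFRSF10B and 0.89 for TNFRSF21. These differences are a description. Counted over the receptors, the PAXIP1-AS1 effect minus that of siRNA 2 gave 1 higher and 2 lower, beside 11.2% and 6.04% of all genes, and minus that of siRNA 1 gave 1 higher and 1 lower, beside 11% and 5.82%.

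The ligands of these receptors were mostly dim. TNFSF10 (TRAIL) lay between 3.50 and 3.75 in group means, FASLG between 5.32 and 5.52, TNF between 5.44 and 5.55, EDA between 6.64 and 6.79 and LTA between 6.73 and 7.19. Of the 5, LTA rose with siRNA 1 (0.37, adjusted p = 0.0261) and 0 others were called with any of the 3 siRNAs. The median of the 5 with siRNA 1 was 0.13, against 0.05 for all genes. Whether dim probe sets as a class read higher with siRNA 1 was not tested.

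The counts of the pathway genes stand beside the shares of all genes called, which were 12.5% higher and 17.4% lower with siRNA 2, 12.1% and 16.7% with siRNA 1, and 2.86% and 1.76% with the PAXIP1-AS1 siRNA. The pathway lists were chosen with earlier results of these data known, and the adjusted p-values do not allow for that choice. Of 7 measured adaptors and initiator caspases, CASP10 (-0.56, adjusted p = 0.00304), an initiator caspase, and TRAF6 (-0.23, adjusted p = 0.0288), an adaptor ligase, fell with siRNA 2, and 1 to 2 of the 7 fell with an array left out. CASP10 was dim, with group means of 5.06 to 5.64, below the lower quartile of all genes, 5.99. With siRNA 1, CFLAR (-0.60, adjusted p = 0.00123), the inhibitor of caspase-8 activation, CASP8 (-0.53, adjusted p = 0.000758) and TRAF3 (-0.31, adjusted p = 0.00757) fell. The PAXIP1-AS1 siRNA gave 0 calls among the 7. CASP8 and CFLAR, which act against each other at the receptor, had differences of -0.13 and -0.02 with siRNA 2 and 0.05 and -0.22 with the PAXIP1-AS1 siRNA.

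Among 11 executioner and mitochondrial genes, 0 rose and 5 fell with siRNA 2, including CASP9 (-0.63), the apoptosome caspase, and BAX (-0.51), a pore-forming protein. Beside 12.5% higher and 17.4% lower of all genes, this count of 5 ran from 2 to 4 with an array left out. With siRNA 1, DIABLO (0.35, adjusted p = 0.00337) and HTRA2 (0.32, adjusted p = 0.00342), mitochondrial antagonists of inhibitors of apoptosis, rose and the nuclease DFFB fell (-0.51). BAX fell with the PAXIP1-AS1 siRNA (-0.43, adjusted p = 0.0122), where BID rose (0.35, adjusted p = 0.0298), and with an array left out each count ran from 0 to 1. Of 5 inhibitors of apoptosis, BIRC5 (-1.01) and XIAP (-0.39, adjusted p = 0.0448) fell and BIRC6 rose (0.22, adjusted p = 0.0163) with siRNA 2. With siRNA 1, XIAP (-0.77, adjusted p = 0.00250) and BIRC2 (-0.30, adjusted p = 0.0303) fell and BIRC5 rose (0.21, adjusted p = 0.0115). The PAXIP1-AS1 siRNA gave 0 calls among the 5.

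RELA, an NF-kB subunit, rose with all 3 siRNAs, by 0.33 with siRNA 2 (adjusted p = 0.00136), 0.58 with siRNA 1 and 0.47 with the PAXIP1-AS1 siRNA (adjusted p = 0.00303). Of the 15 kinase and NF-kB relay genes, siRNA 2 gave 2 higher and 4 lower, beside 12.5% and 17.4% of all genes. siRNA 1 gave 3 higher and 2 lower, beside 12.1% and 16.7%, and the PAXIP1-AS1 siRNA gave 1 higher and 0 lower, beside 2.86% and 1.76%. With an array left out, the lower count ran from 2 to 4 with siRNA 2 and from 0 to 3 with siRNA 1. NFKB1, the precursor of the p50 subunit, fell with siRNA 2 (-0.56, adjusted p = 0.00574). Of 12 NF-kB target genes, siRNA 2 gave 2 higher and 1 lower, namely TNFAIP3 (0.35, adjusted p = 0.0149) and SOD2 (0.32, adjusted p = 0.00314) above and NFKBIA (-0.60) below, beside the same 12.5% and 17.4% of all genes, and the other 2 siRNAs gave 0 calls. The 9 genes of the ATF4 and CHOP stress response, which can raise TNFRSF10B, gave 1 higher and 1 lower with siRNA 2, beside 12.5% and 17.4% of all genes, 1 higher and 5 lower with siRNA 1, beside 12.1% and 16.7%, and 0 calls with the PAXIP1-AS1 siRNA. The stress genes with siRNA 1 included CHAC1 (-0.83, adjusted p = 0.00222) and ATF4 (-0.48) below its control and PPP1R15A (0.31, adjusted p = 0.00357) above.

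The p53 target genes other than the receptors had negative medians with all 3 siRNAs. That they were lower with both LOC440173 siRNAs was known when this list was drawn up, so those values are a description with no p. Of 23 measured, siRNA 2 gave 2 higher and 12 lower (median -0.26), beside 12.5% and 17.4% of all genes, and siRNA 1 gave 2 higher and 9 lower (median -0.20), beside 12.1% and 16.7%. The PAXIP1-AS1 siRNA gave 1 higher and 10 lower (median -0.32), beside 2.86% and 1.76%, while the median of all genes was 0.01 with siRNA 2, 0.05 with siRNA 1 and -0.01 with the PAXIP1-AS1 siRNA. TP53INP1, a stress-induced nuclear protein, was lower by 1.09 with siRNA 2, by 1.38 with siRNA 1 and by 0.87 with the PAXIP1-AS1 siRNA (log2 fold change -1.09, -1.38 and -0.87). SPATA18, a mitochondrial quality-control gene, gave -0.93, -0.71 and -1.06. CDKN1A, the p21 cell-cycle inhibitor, gave -0.30, -0.39 and -0.75, and ZMAT3, an RNA-binding protein, gave -0.26, -0.95 and -0.37 (adjusted p = 0.00790). TP53I3 gave -0.91, -0.20 and -0.72 (adjusted p = 0.00188), and CCNG1 gave -0.16, -0.65 and -0.15 (adjusted p = 0.173). The genes counted as higher with 1 or more siRNAs were PMAIP1 (0.45, -0.10 and 0.09), POLH (0.37, 0.34 and -0.13) and PERP (0.09, 0.31 and 0.30, adjusted p = 0.0229). BBC3 gave 0.04, 0.21 and -0.17, without a call. The number lower with the PAXIP1-AS1 siRNA ran from 5 to 16 over the alternatives.

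**Figure D3:**
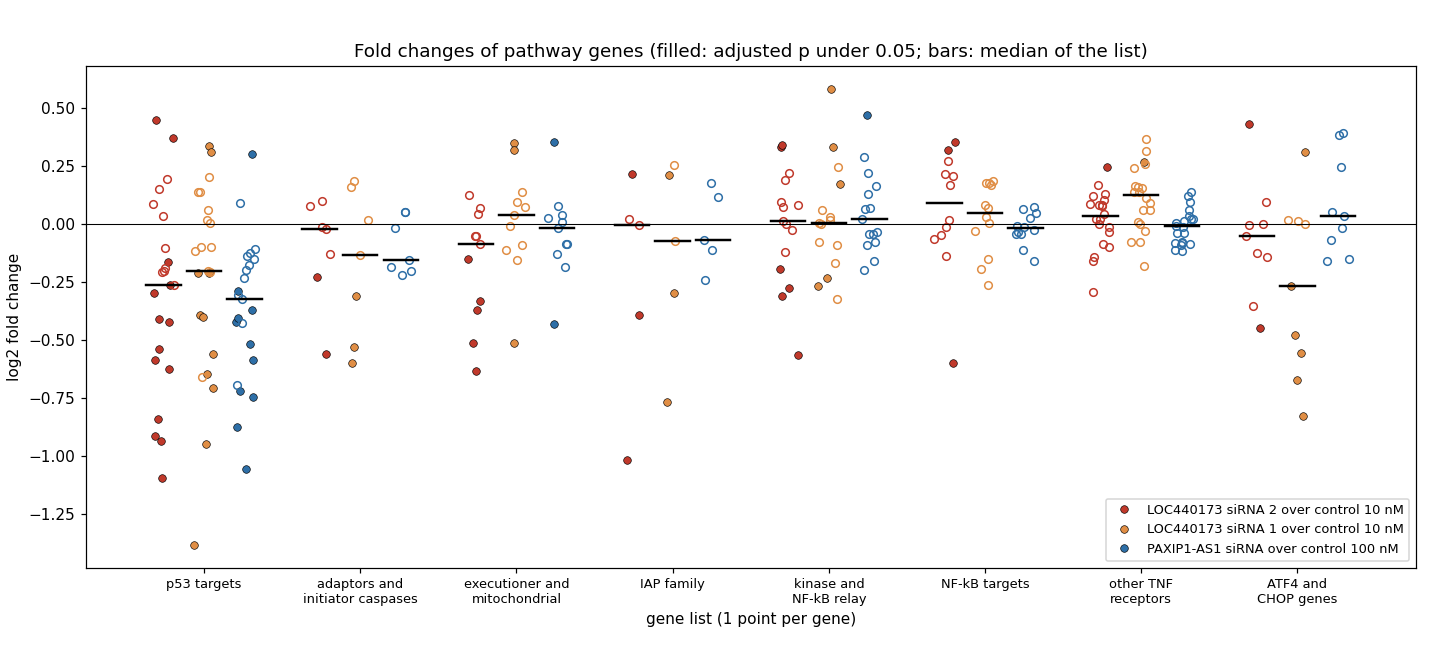
Log2 fold change of each gene of the pathway lists over its control (vertical axis), 1 point per gene, by list and siRNA, filled where the adjusted p was under 0.05, with list medians as bars. The p53 targets other than the receptors have medians of -0.26 with siRNA 2, -0.20 with siRNA 1 and -0.32 with the PAXIP1-AS1 siRNA, and the TNF receptors outside the group have medians of 0.03, 0.12 and -0.01.

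Genes with profiles most like the 2 receptors of widest range were sought among 607 genes with a mean level of at least the median and group means that differed by 1 or more. For TNFRSF10D (range 2.27) the highest Pearson correlations over the 10 arrays were with BTBD2 (0.985), SNAI2 (0.978), SMPDL3B (0.976), FAM136A (0.972) and ARRDC4 (0.970). SNAI2, a repressor of epithelial genes, had log2 fold changes of -1.66 with siRNA 2, -0.07 with siRNA 1 and -0.43 with the PAXIP1-AS1 siRNA. For TNFRSF21 (range 1.48) they were with MTFR1 (0.996), IGF2BP3 (0.993), MEX3C (0.993), RRAGD (0.993) and GPC6 (0.992). MTFR1, a mitochondrial fission regulator, had 0.41, -0.82 and -0.02 in the same order. The 5 genes named for TNFRSF10D had log2 fold changes of -1.66 to -1.08 with siRNA 2. Theirs were -0.48 to -0.07 with siRNA 1 and -0.43 to -0.18 with the PAXIP1-AS1 siRNA. The range of TNFRSF10D is its siRNA 2 difference, by which it was noticed, so its correlations rest mainly on the 2 siRNA 2 arrays. The correlations and fold changes describe the same 10 arrays, which form 5 groups, and carry no p.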

How the data were processed

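The authors deposited log2 values, 1 column per array for 32321 probe sets. Per the submitters' processing notes RMA and limma were used, without versions. RMA corrects background, normalizes quantiles and sums up each probe set. The array definition is not given in the sources used here, nor is the genome build. No further scaling was applied. Array medians lay between 7.06 and 7.12, and replicate arrays correlated at 0.994 to 0.997. The platform annotation gave 1 symbol for 19158 probe sets, several for 1388 and none for 11775. Where a gene had several probe sets (637 genes), the brightest was used, leaving 18404 genes.

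A single limma fit (3.58.1 in R 4.3.3) took the 10 arrays with a mean per group, and eBayes shared the spread over the groups (5 residual and 2.87 prior degrees of freedom). Tests were two-sided, adjusted by Benjamini-Hochberg over all genes, with a threshold of 0.05. TNFRSF10C, with a shared probe set, was tested in the fit over all probe sets. The smallest p of an exact permutation test of 2 arrays against 2 is 0.333, and every call depends on the spread shared over groups. SE, SD and 95% intervals come from these values, and the number of arrays limits the precision. The labels call the replicates biological and say no more of their cultures, so p-values measure the spread between these arrays.

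The members, the gene lists and the rule for named genes were chosen with earlier results of these data known. The rule took all receptors and ligands, LINC02893, the 3 members with the smallest adjusted p of each other list in each target siRNA contrast, and for likeness the 5 genes with the highest correlation for the 2 receptors with the widest range of group means. RIPK1, TRAF2, BIRC3, TAB1, TNFRSF6B, FDXR and BTG2 were not analysed here. Same-numbered arrays had correlated deviations in all of 10 pairs of groups (0.068 to 0.529), with siRNA 2, the PAXIP1-AS1 siRNA and both controls at 0.293 to 0.529 among themselves and each pair with siRNA 1 under 0.1. The labels name no shared batch and not every pair passed 0.1, so no block entered the main model. The code was tested on simulated data. Alternatives were a second quantile normalization, dim genes left out, the compared groups alone, a trend and robust prior, array weights, a replicate block, each probe set on its own, the mean over probe sets and each array left out.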

Additional observations from a re-analysis of the deposited data

Results flagged for a closer look

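These results are listed because the difference between the effects of 2 siRNAs had an adjusted p under 0.05 in limma. The members were chosen with LOC440173 results known, so this threshold only picks the entries, and the values are a description. TNFRSF21 was higher with siRNA 2 than with siRNA 1 by 1.48 (log2), and its PAXIP1-AS1 effect differed from that of siRNA 2 by -0.60 and from that of siRNA 1 by 0.89. TNFRSF10D differed by -1.73 between siRNA 2 and siRNA 1 and by 1.52 between the PAXIP1-AS1 effect and the siRNA 2 effect. FAS had a PAXIP1-AS1 effect below that of siRNA 2 (-0.58), and TNFRSF10B a PAXIP1-AS1 effect below that of siRNA 1 (-0.31).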

How the results depend on the processing

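Over 18 alternatives (17 for EDA2R and TNFRSF10A, 15 for TNFRSF10C), 901 receptor values kept their direction and their side of the threshold, 37 were no longer past it, 13 passed it only there, and 22 turned sign, all of them uncalled, and the cause was not tested. A second quantile normalization gave, against the 10 nM control, 0.042 for TNFRSF1A and -0.012 for TNFRSF10C with siRNA 2, and -0.018 for TNFRSF10A and -0.0014 for TNFRSF10C with siRNA 1, and 0.069 for TNFRSF10A in the PAXIP1-AS1 effect minus the siRNA 1 effect. With an array left out, siRNA 2 gave -0.052 to 0.022 for TNFRSF10A and -0.045 to 0.029 for TNFRSF1A. siRNA 1 gave -0.042 to 0.20 for TNFRSF10C. Between siRNA 2 and siRNA 1, EDA2R ran from -0.20 to 0.070 and TNFRSF10C from -0.17 to 0.078. Between control doses, EDA2R ran from -0.071 to 0.072, FAS from -0.20 to 0.080, TNFRSF10D from -0.083 to 0.035 and TNFRSF1A from -0.015 to 0.040. For TNFRSF10A the PAXIP1-AS1 effect minus the siRNA 1 effect ran from -0.066 to 0.0078.

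All genes called with the PAXIP1-AS1 siRNA numbered 850, against 1879 with dim genes left out, 181 with the compared groups alone, 1784 with a trend and robust prior, 1544 with array weights, 1325 with the replicate block, 432 with each probe set on its own and 110 to 895 with an array left out. With the compared groups alone, siRNA 2 called 2788 (main 5512) and siRNA 1 called 3494 (main 5301). With an array left out, siRNA 1 called 3294 to 5663, the PAXIP1-AS1 effect minus that of siRNA 2 called 1917 to 2867 (main 3168) and minus that of siRNA 1 called 1695 to 3624 (main 3100). Receptors lower with siRNA 1 numbered 5, and 3 with the compared groups alone and 3 to 4 with an array left out. Between siRNA 2 and siRNA 1 the number was 1, and 2 with dim genes left out. For the PAXIP1-AS1 effect minus that of siRNA 2 it was 2, and 1 with the compared groups alone, 1 with each probe set on its own and 1 to 2 with an array left out. Minus that of siRNA 1 it was 1, and 2 with a second quantile normalization, 3 with dim genes left out, 2 with a trend and robust prior, 2 with the replicate block and 0 to 1 with an array left out. With the PAXIP1-AS1 siRNA, EDA2R, TNFRSF10D and TNFRSF10B kept their calls in the alternatives run, the replicate block included. Same-numbered arrays correlated above 0 in all 10 pairs of groups, a hint from the data and not from the design.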

Other observations

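EDA2R, added to the likeness search after its values were seen, correlated over the 10 arrays with SPATA18 (0.939), TP53INP1 (0.907), NEFL (0.885), CCNC (0.883) and ACTA2 (0.865). ACTA2, smooth muscle actin, had log2 fold changes of -1.47 with siRNA 2, -0.56 with siRNA 1 and -1.85 with the PAXIP1-AS1 siRNA, and CCNC, a cyclin of the Mediator kinase module, had -1.13, -0.86 and -0.63. ACTA2 lies beside FAS on chromosome 10.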
